A study of Mus musculus with 6 samples.

Results

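The proliferating cells of this mouse lung dataset were the 131 barcodes, of 9994 kept, in which at least 4 of 10 genes of late cell division had a UMI (unique molecular identifier, a tag by which each captured RNA molecule is counted once). The 10 genes were Mki67, Top2a, Cdk1, Birc5, Ccnb2, Tpx2, Cenpf, Ube2c, Nusap1 and Pbk, called the rule genes here. The 131 cells made up 1.31% of the kept cells (95% exact interval 1.10 to 1.55, which covers counting error only, as do all intervals given here). A further 485 cells had a UMI of 1 to 3 rule genes, and 9378 cells had none and are called non-cycling. Because the rule reads the same counts, every contrast of proliferating with non-cycling cells describes cells chosen for their expression, and none was tested.

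The cells came from lungs of SMA-GFP;Tbx4cre;RosaTdTomato mice, in which GFP follows the smooth muscle actin gene (SMA) and tdTomato (Tm) marks cells with a history of Cre expression from Tbx4, a transcription factor gene of lung mesenchyme. Cells negative for Epcam, CD31 and CD45 were sorted by flow cytometry in 3 gates (SMA+Tm+, or SMA-Tm+, or negative for both). The injuring agent bleomycin, used to model lung fibrosis, had been given 21 days earlier (d21), or the mice were at day 0 (d0), with 1 sample per gate and time. All groups share the reporter genotype, and tdTomato marks only cells with a Tbx4 history. The pooled count table carries barcode suffixes 1 to 6 that no label ties to a gate or a day, so it was read as 1 sample, no day or gate was compared, and a suffix serves only to name a portion of the counts. UMI totals of kept cells ran from 2727709 in suffix 6 to 12350006 in suffix 4. Xist was detected in 87.7% or more of the cells of suffixes 4, 5 and 6 and in at most 0.227% of those of suffixes 1, 2 and 3, while Y-linked genes were detected in 46.3% or more of the cells of suffixes 1, 2 and 3 and in at most 0.190% of the others.

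A dividing cell copies its DNA in S phase, with origin licensing factors, helicase subunits and DNA polymerases made before and during it. It then enters G2 and mitosis, when cyclin B with the kinase Cdk1, spindle motors, kinetochore proteins and checkpoint kinases are made and afterwards destroyed through the anaphase promoting complex. Transcripts of the late group come from promoters that a repressor complex keeps silent in resting cells through an element called the cell cycle homology region, together with CCAAT boxes that bind NF-Y. In the lung, resident alveolar macrophages maintain themselves by local division, whereas most B cells, T cells and fibroblasts of a healthy lung rest.

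Of the rule genes, Mki67, which encodes the nuclear proliferation antigen Ki-67, was found in the most cells, with a UMI in 122 of the 131. Birc5, a subunit of the chromosomal passenger complex, was found in 111 cells, Top2a, the topoisomerase that untangles sister DNA, in 103, and Ccnb2, a cyclin B, in 101. Ube2c, the ubiquitin-conjugating enzyme of the anaphase promoting complex, followed with 90, the kinetochore protein Cenpf with 86, and the spindle proteins Nusap1 and Tpx2 with 84 and 72. Cdk1 and the mitotic kinase Pbk were found least often, in 52 and 49 cells. By summed counts the order differed, with Top2a at 759 CPM (counts scaled to a common library total, interval 705 to 816) above Mki67 at 534 CPM (489 to 582), and with Cdk1 at 92.3 and Pbk at 88.2 CPM. The libraries were made with a kit that reads the 3′ end of transcripts, so a UMI stands for a captured transcript and levels carry no length term.

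Promoters of 8 of the 10 rule genes were matched in RefSeq (GRCm38.p6, 250 bases before to 50 after each start). Tpx2 and Pbk had no entry. The element TTTGAA, the core of the cell cycle homology region, was present on either strand in 6 of these 8 promoters (75%), against 17.9% of all 32851 promoters in the table. CCAAT on either strand was also in 6 of 8, against 37.4% of all promoters, and the same 6 held both, against 6.95% of all. The E2F sequences TTTGGCGC and TTTCCCGC were in 0 of 8, against 1.56% of all. The 150 bases before the start are shown for 3 of the rule genes because they hold these elements in different arrangements. Capitals mark TTTGAA with its reverse complement TTCAAA, and CCAAT with its reverse complement ATTGG. All 3 genes lie on the minus strand, Mki67 at chr7:135716380-135716529, Top2a at chr11:99024190-99024339 and Ccnb2 at chr9:70421555-70421704, and each sequence reads 5′ to 3′ toward the start.
Mki67: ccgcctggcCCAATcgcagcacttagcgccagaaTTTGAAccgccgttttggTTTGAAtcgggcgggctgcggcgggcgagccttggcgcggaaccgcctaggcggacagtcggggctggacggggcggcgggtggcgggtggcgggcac
Top2a: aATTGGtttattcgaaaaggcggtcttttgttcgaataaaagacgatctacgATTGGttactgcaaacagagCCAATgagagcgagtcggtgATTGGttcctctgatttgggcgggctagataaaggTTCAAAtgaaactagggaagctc
Ccnb2: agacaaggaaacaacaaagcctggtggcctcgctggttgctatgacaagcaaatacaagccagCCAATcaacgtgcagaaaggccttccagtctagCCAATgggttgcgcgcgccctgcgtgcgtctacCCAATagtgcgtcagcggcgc
Within these windows Mki67 had 2 copies of TTTGAA and 1 CCAAT, Top2a had 1 TTCAAA near the start and 4 CCAAT boxes, and Ccnb2 had 3 CCAAT boxes, its TTTGAA copies lying outside the bases shown. The contrast extended to genes the rule did not use. Among 55 promoters matched for 50 of 58 genes of mitotic kinases, spindle and kinetochore (the G2/M list), 35 (63.6%) held TTTGAA, 41 (74.5%) held CCAAT and 3 (5.45%) an E2F sequence. Among 37 promoters of 31 of 39 origin licensing and polymerase genes (the S list), 8 (21.6%) held TTTGAA, 20 (54.1%) CCAAT and 12 (32.4%) an E2F sequence. A match is a run of letters, not a measured binding site.

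Cells were spread over all numbers of rule genes above the threshold. There were 28 cells with 4 rule genes, 14 with 5, 24 with 6, 18 with 7, 19 with 8, 14 with 9 and 14 with all 10. Just outside the rule, 27 cells had 3 rule genes, with a summed level of 859 CPM over the 10 genes. Just inside it, the 28 cells with 4 had 1368 CPM. The 414 cells with a single rule gene had 209 CPM.

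**Figure D1:**
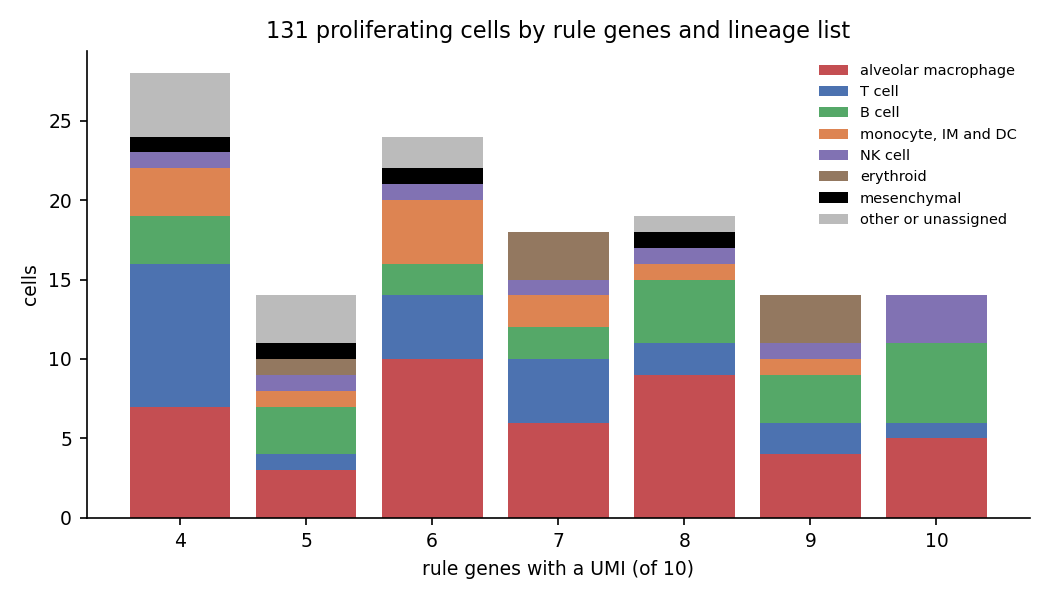
Number of proliferating cells (vertical axis) by how many of the 10 rule genes had a UMI (horizontal axis), coloured by lineage list; IM and DC stand for interstitial macrophage and dendritic cell. The 28 cells at 4 rule genes and the 14 at 10 rule genes both include alveolar macrophage, T cell and B cell list cells, and the tallest bar is the one nearest the threshold.

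Proliferating cells were deep. Their median UMI count was 7241, from 816 to 22329, against 2625 in non-cycling cells, and their median number of genes was 2322 against 1192. A deeper cell has more chances of showing 4 rule genes, so each cell was also thinned to 1500 UMIs, which left out 1728 shallower cells. Then 60 of 8266 cells (0.726%, 0.554 to 0.933) met the rule. Judged at that equal depth, the 60 cells still had a median of 7286 UMIs before thinning against 3163 in cells that then had no rule gene. The ratio of these depths was 4.46 in NK cell-like cells (5 cells), 3.59 in B cell-like cells (15 cells), 1.92 in T cell-like cells (7 cells) and 1.45 in alveolar macrophage-like cells (21 cells), and 0.692 in erythroid-like cells (5 cells). By Scrublet, 75 of the kept barcodes were doublets (0.750%) and 2 of these were proliferating cells.

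The proliferating cells were mostly leukocytes by transcript, although the sort selected CD45-negative cells. Ptprc, which encodes CD45, had a UMI in 96 of 131 (73.3%) against 44.7% of non-cycling cells, at nearly the same level (331 against 320 CPM). Chil3, an alveolar macrophage gene, had a UMI in 62 cells (47.3%) against 19.6% of non-cycling cells, at 1195 against 914 CPM. Cd79a, part of the B cell receptor, was found in 28 (21.4% against 19.3%), but its level was lower, at 200 against 325 CPM. Cd3e, part of the T cell receptor complex, was found in 25 (19.1% against 9.06%), at 67.4 against 47.6 CPM. The endothelial gene Pecam1 was in 21 (against 14.9% of non-cycling cells), also at a lower level, 29.0 against 90.7 CPM. The collagen gene Col1a2 was in 8 (6.11%) against 28.6% of non-cycling cells, and its level was 76.7 against 470 CPM. By combination, 38 cells had Ptprc with Chil3 alone, 14 had Ptprc with Cd3e alone, 14 had Ptprc alone, 9 had Cd79a alone and 8 had none of the 6 genes.

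Lineages were called from 12 lists of marker genes, each cell taking the list with the largest share of its genes detected, with at least 3 detected, and cells are called "-like" after that list. There were 44 alveolar macrophage-like cells (33.6% of the proliferating cells, 25.6 to 42.4), 23 T cell-like (17.6%, 11.5 to 25.2) and 22 B cell-like (16.8%, 10.8 to 24.3). A further 12 were like monocytes, interstitial macrophages or dendritic cells, 9 NK cell-like, 7 erythroid-like, 4 mesenchymal-like, 2 neutrophil-like, 2 plasma cell-like and 1 endothelial-like, and 5 reached no list. The 7 immune lists without the erythroid one held 114 of the 131 (87.0%, 80.0 to 92.3), against 53.1% of all kept cells. Clusters made without the rule genes and 12 lists of cell cycle genes gave the same lineage to 112 of the 131. Other genes tied to division, such as Cdkn3 and Cdkn2c, were not removed before clustering. In 33 of the assigned cells at least 3 genes of another list were also detected, and in 12 the lead over the next list was at most 0.1 in the share of genes.

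The share of each list's cells that were proliferating spanned a wide range. It was 3.32% in alveolar macrophage-like cells (44 of 1327, 2.42 to 4.43), 2.89% in NK cell-like cells (9 of 311, 1.33 to 5.42), 2.09% in T cell-like cells (23 of 1103, 1.33 to 3.11) and 1.28% in B cell-like cells (22 of 1720, 0.803 to 1.93). In mesenchymal-like cells, the population the sort was designed for, it was 0.139% (4 of 2884, 0.0378 to 0.355). The interval of the mesenchymal share did not reach those of these 4 immune lists, but these pooled shares are not adjusted for suffix. Most mesenchymal-like cells were in suffixes 4 (2023 cells) and 1 (666 cells). There, 0 of 47 and 0 of 62 B cell-like and 0 of 51 and 0 of 48 T cell-like cells were proliferating. Within suffix 4, the share was 1.80% in alveolar macrophage-like cells (10 of 557, 0.864 to 3.28). It was 0.148% in mesenchymal-like cells of that suffix (3 of 2023, 0.0306 to 0.433). Of the 10 macrophage-like cells, 5 lay in cluster C31, where 31 of 39 barcodes had UMIs of at least 3 mesenchymal list genes. The share without mixed barcodes was not computed. Endothelial-like cells were close to the mesenchymal value, with 1 of 720 (0.139%). No proliferating cell was found among 115 epithelial-like cells, which allows a share of up to 2.61% by the limit of 3 counts (exact interval up to 3.16%), or among 78 mesothelial-like cells, which allows up to 3.85% (exact interval up to 4.62%).

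At 1500 UMIs per cell the order of these 4 immune lists differed, with NK cell-like cells highest at 2.20% (0.719 to 5.07), an interval that overlaps those of the other 3. Alveolar macrophage-like cells went from 3.32% to 1.71% (1.06 to 2.60) and T cell-like cells from 2.09% to 0.685% (0.276 to 1.41), whereas B cell-like cells went from 1.28% to 1.14% (0.638 to 1.87). Mesenchymal-like cells were at 0.0811% (0.00982 to 0.293), still below the intervals of alveolar macrophage-like and B cell-like cells, while their interval now overlapped that of T cell-like cells. Median depths of non-cycling cells were 4816 UMIs for alveolar macrophage-like, 2960 for T cell-like, 2036 for B cell-like and 2738 for mesenchymal-like cells.

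**Figure D2:**
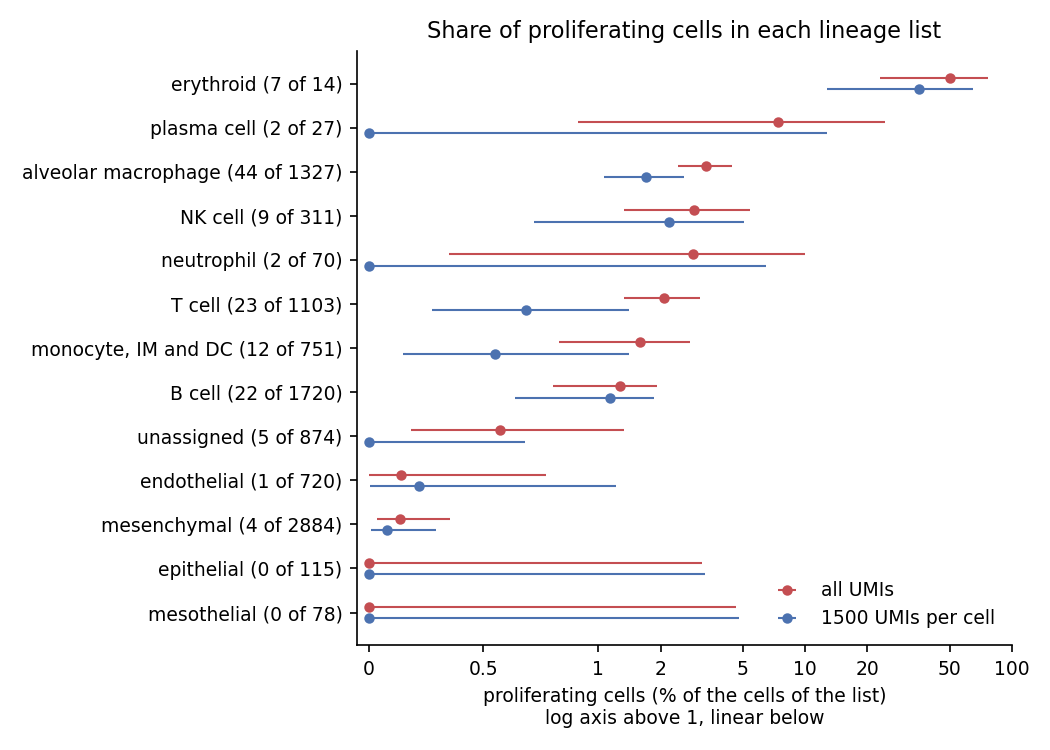
Share of the cells of each lineage list that were proliferating (horizontal axis, percent, logarithmic above 1 and linear below), from all UMIs (red) and after thinning each cell to 1500 UMIs (blue); bars are 95% exact binomial intervals of counting error, and the counts in brackets are those from all UMIs. Alveolar macrophage (3.32%), NK, T and B cell list cells stand above mesenchymal and endothelial list cells (0.139% each), and the erythroid list rests on 14 cells.

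The counts by suffix were small, and differences between suffixes were not tested. The 6 suffixes held from 10 to 34 proliferating cells each, and the share ran from 0.463% in suffix 4 to 3.91% in suffix 6 and, at 1500 UMIs, from 0.279% to 1.94% in the same suffixes. Proliferating alveolar macrophage-like cells occurred in all 6 suffixes, with 3 to 10 cells each. Proliferating B cell-like cells came from 3 suffixes, with 13 of 600 such cells (2.17%) in suffix 3, 7 of 240 in suffix 6 and 2 of 442 in suffix 2. There were 0 of 329 in suffix 5, and 0 of 62 in suffix 1 and 0 of 47 in suffix 4, where the exact intervals reach 5.78% and 7.55%. The 7 erythroid-like cells came from suffixes 3 and 6. Of the 4 mesenchymal-like cells, 3 came from suffix 4, which also held 2023 of the 2884 mesenchymal-like cells.

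The 39 genes of the S list and the 58 of the G2/M list, none of them a rule gene, behaved differently across the threshold. The S list was at 483 CPM in non-cycling cells and 494 CPM with 1 rule gene, stepped to 1572 CPM (1437 to 1716) with 2 and 1902 CPM with 3, and stayed between 2135 and 2407 CPM from 4 rule genes on. The G2/M list was at 225, 239, 769 and 1228 CPM with 0, 1, 2 and 3 rule genes, and went on from 2392 CPM with 4 to 6583 CPM with 9 to 10. Cells with 1 rule gene were thus nearly at the non-cycling level on both lists, while cells with 2 or 3 had raised levels of both. The summed list of chromatin assembly and histone genes kept rising, from 1698 CPM with no rule gene to 9429 CPM with 4 and 16638 CPM with 9 to 10. That list also holds genes such as Hmgb1, Hmgb2 and H2afz, and its S phase histones were not summed apart. Origin licensing and helicase genes, which act before and during S phase, went from 158 CPM to 1051 CPM with 4 and 965 CPM with 9 to 10.

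**Figure D3:**
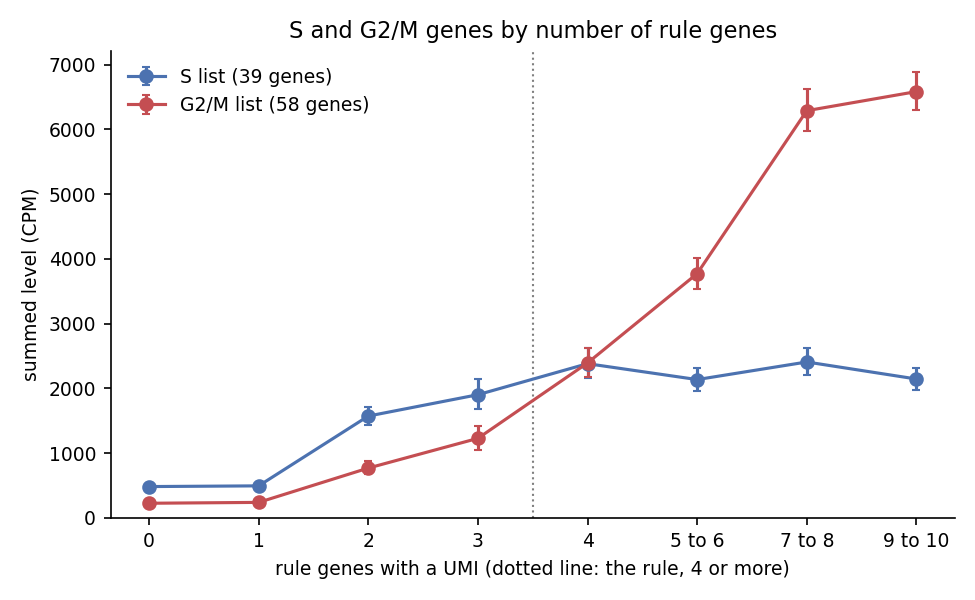
Summed level in CPM (vertical axis) of the S list (39 genes, blue) and the G2/M list (58 genes, red), over cells grouped by the number of rule genes with a UMI (horizontal axis); bars are 95% exact Poisson intervals of counting error. The S list levels off near 2381 CPM at 4 rule genes while the G2/M list continues to 6583 CPM.

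Cell by cell, the proliferating cells had between 0 and 84.1 S list UMIs per 10000 (median 16.5) and between 5.28 and 164 G2/M list UMIs per 10000 (median 48.5). In 107 of 131 the G2/M list had more UMIs than the S list, in 23 fewer, and in 1 the same number. Across the 131 cells both levels together had a Spearman rho of 0.0034, a description over cells that share libraries and differ in depth. More S than G2/M UMIs were found in 7 of 23 T cell-like, 4 of 22 B cell-like and 4 of 44 alveolar macrophage-like cells. The median G2/M level was 63.8 per 10000 in alveolar macrophage-like, 60.6 in B cell-like and 37.3 in T cell-like cells. A rule built on late genes leaves out cells that show S genes only. Of the non-cycling cells, 107 (1.14%) had at least 5 S list UMIs at a level of at least the proliferating median, among them 41 B cell-like, 21 alveolar macrophage-like, 16 T cell-like and 8 mesenchymal-like cells. Their G2/M list level was 323 CPM.

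**Figure D4:**
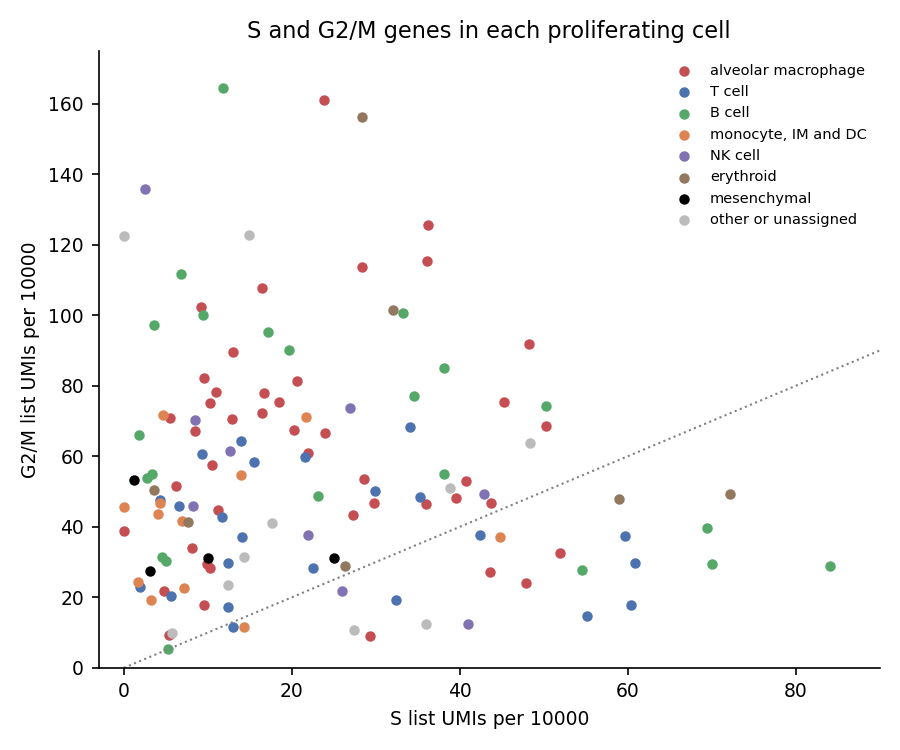
UMIs per 10000 of the S list (horizontal axis) and the G2/M list (vertical axis) in each of the 131 proliferating cells, 1 point per cell, coloured by lineage list; the dotted line marks equal levels. Most points (107) lie above the line, and S levels reach 84.1 per 10000 with no shared trend with G2/M levels.

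Genes outside the rule were compared as the UMIs seen in proliferating cells against those expected at the levels of non-cycling cells of the same lineages. Neither this comparison nor those within single lineages matched the cells by suffix. Of 6496 genes measured (20 CPM or more in either group, rule genes left out), 9.94% were 2-fold or more higher in proliferating cells and 4.73% were 2-fold or more lower, with a median log2 ratio of 0.05. Against that background, the cell cycle lists were high almost throughout. Origin licensing and helicase genes were 2-fold higher in 14 of 17 measured members (median log2 ratio 2.47), as were 15 of 18 replication polymerase, clamp and ligase genes (2.02), 11 of 12 genes of nucleotide supply (2.23), 17 of 17 chromatin assembly and histone genes (4.01), 15 of 15 mitotic kinase and checkpoint genes (6.55), 28 of 28 kinesin, spindle and cytokinesis genes (6.25), 15 of 15 centromere and kinetochore genes (5.23) and 13 of 16 condensin and cohesin genes (2.37). The members measured are those that passed the 20 CPM filter, which a gene can pass through the proliferating cells alone. Which list had the largest median depended on the setting, since at 50 CPM the mitotic kinase median was 4.64 and the kinesin median 5.88.

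Single genes of these lists were nearly absent from non-cycling cells. Paired UMI counts here and below are raw sums, not expected UMIs, and are not scaled for group size. The proliferating cells held 964179 UMIs and the non-cycling cells of their lineages 30119756, so equal counts mean a higher level in proliferating cells. The non-cycling group also held more UMIs within alveolar macrophage-like, B cell-like and T cell-like cells. Ccna2, cyclin A of S and G2, had 246 UMIs in 83 of the 131 cells (255 CPM) and 5 UMIs in all the non-cycling cells of their lineages. Rrm2, the regulated subunit of ribonucleotide reductase, had 269 UMIs in 74 cells against 25. Its partner in nucleotide supply Tk1, thymidine kinase, had 72 UMIs against 41. 2810417H13Rik, also called Pclaf, whose product binds the replication clamp, had 637 UMIs against 61. The kinesin Kif2c had 50 against 1, and the hyaluronan receptor and spindle protein Hmmr 131 against 4. The licensing factor Mcm10 had 20 UMIs against 8. Another licensing factor, Cdt1, whose product is destroyed once S phase begins, was less exclusive, with 23 against 320 and a log2 ratio of 0.66. Housekeeping members of the same complexes were close to their non-cycling level, among them the cohesin subunit Stag2 (log2 ratio 0.35) and the anaphase promoting complex subunit Cdc26 (0.46). Securin, Pttg1, was at -0.36. The anaphase promoting complex list was 2-fold higher in 8 of 15 (median 1.13), with its activator Cdc20 at 136 UMIs against 57.

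Genes that restrain division split into groups. Of 18 measured CDK inhibitor and quiescence genes, 4 were 2-fold higher and 3 lower (median -0.19). Cdkn3, a phosphatase that acts on CDKs, had 105 UMIs against 18 in non-cycling cells, and Cdkn2c, the CDK inhibitor p18, was at 148 against an expected 19.98 CPM. Btg1, an antiproliferative gene, was at 681 against 1720 CPM (log2 ratio -1.34), and Txnip, which curbs glucose uptake, at 186 against 407 CPM (-1.13). The D-type cyclin Ccnd2 was also lower, at 169 against 323 CPM (-0.93). Of the lists for growth, 0 of 27 genes of nuclear oxidative phosphorylation (median 0.33) and 0 of 27 cytosolic ribosomal protein genes (median -0.26) passed 2-fold in either direction. The nuclear transport GTPase Ran (723 against 193 CPM) and its partner Ranbp1 (345 against 143 CPM) were higher. Among the immediate early genes, 0 of 15 were 2-fold higher and 4 lower (median -0.73).

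Alveolar macrophage-like cells were the largest group, with 44 proliferating and 1165 non-cycling cells. Suffix 4 held 10 of the 44 and 503 of the 1165. Of 6664 measured genes, 12.9% were 2-fold or more higher and 5.39% 2-fold or more lower in the proliferating cells. Genes of macrophage upkeep were lower, with 8 of 23 measured members 2-fold or more lower and 0 higher (median -0.82, against 0.10 over all measured genes). Lyz2, lysozyme, ran from 24.1 to 199 UMIs per 10000 in the proliferating cells, with a median of 65.5 against 131 in non-cycling cells, and its summed level was 7794 against 14423 CPM (log2 ratio -0.89, -0.95 to -0.83). The upper quartile of the proliferating cells, 86.3 per 10000, lay below the lower quartile of the non-cycling cells, 101. The lysosomal protease Ctsd had a median of 10.2 per 10000 against 24.4, at 1365 against 3016 CPM (-1.14). The mannose receptor Mrc1 was at 391 against 731 CPM (-0.90). Csf2ra, a chain of the receptor for GM-CSF, the cytokine on which these cells depend, was at 59.8 against 163 CPM (-1.44, -2.23 to -0.76), and the shared chain Csf2rb at 225 against 397 CPM. Pparg, their defining transcription factor, was at 88.0 against 65.4 CPM with an interval that includes no change (0.43, -0.22 to 1.01).

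Larger differences in these macrophages were seen for genes concentrated in some of them. Apoe, an apolipoprotein, was at 45.7 against 483 CPM (log2 ratio -3.40), and the lysosomal glycoprotein Gpnmb at 31.7 against 172 CPM (-2.45). Compared within clusters these were -1.67 and -1.56, and Mmp12, a macrophage elastase with 3 UMIs in the 44 cells (-3.28, -5.57 to -1.73), was at 0.33 within clusters. Cluster C17, led by Spp1 and Mmp12, had no proliferating cell among 185, and its non-cycling cells had Apoe at 5460, Gpnmb at 580 and Mmp12 at 790 CPM. The median of the upkeep list stayed between -0.94 and -0.60 under the 12 alternatives tried. Among histone genes, Hist1h1b and Hist1h2ap, which are made in S phase, had 63 against 1 and 209 against 28 UMIs, while Hist1h2bc was lower, at 63.3 against 238 CPM. The CDK inhibitors Cdkn2c (91.5 against 2.1 CPM) and Cdkn2d (162 against 13.1 CPM) were higher. Hexokinase Hk2 had 2 UMIs in the 44 cells, 7.04 against 64.2 CPM (-3.19, -6.24 to -1.33). Ribosomal protein genes were level, with a median of -0.01.

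Some dividing macrophage-like barcodes also carried fibroblast transcripts. The fibroblast matrix list had a median of 0.84 in these cells (2 of 6 measured genes 2-fold higher) and -1.12 within clusters. In 8 of 44 (18.2%, 8.19 to 32.7) at least 3 genes of the mesenchymal list had a UMI, against 38 of 1165 (3.26%, 2.32 to 4.45) non-cycling macrophage-like cells. Of the 8, 7 lay in cluster C31, led by Dcn, Chil3 and Timp3, where 13 of 39 barcodes (33.3%, 19.1 to 50.2) were proliferating. This was the highest share of any cluster. In C31, Scrublet called 16 of the 39 barcodes doublets but 1 of the 13 proliferating ones, whose median depth was 3593 UMIs. The mesenchymal list was at 1555 CPM in those 13 and 16.2 CPM in the 25 proliferating cells of the main macrophage cluster C1. The 13 came from suffixes 1 (3), 2 (5) and 4 (5). The part of mixed barcodes in the fibroblast signal was not tested. Without macrophage-like cells that held 3 mesenchymal genes, the upkeep median was -0.75. All 233 UMIs of the globin gene Hba-a1 in the 44 cells were in a single barcode.

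B cell-like cells had 22 proliferating and 1641 non-cycling cells, and 20.2% of 6013 measured genes were 2-fold higher and 16.4% lower. Cluster C22, led by Vpreb3, Ebf1 and Cd79a, held 15 of the 22, and 17 of its 122 cells (13.9%, 8.33 to 21.4) were proliferating, against 3 of 605 (0.496%) and 4 of 578 (0.692%) in the B clusters C4 and C6. The B cluster C9 had no proliferating cell among 453. The split by C22, like the other comparisons of single clusters, was chosen after its share was seen. The cells of C22 came almost entirely from suffixes 3 (89 cells, 10 proliferating) and 6 (31 cells, 7 proliferating). In the 15 cells Vpreb3 was at 2582 CPM, but Vpreb3 also led C6, together with Ms4a1 and Ly6d. Of the genes of B cell precursors, Sox4, a transcription factor of progenitors, was at 650 CPM. Il7r, the receptor for the cytokine that drives precursor growth, had 27 UMIs. These 3 values are given without a reference level. Ms4a1, which encodes the mature B cell antigen CD20, was at 17.3 CPM against 1279 CPM in non-cycling B cell-like cells outside C22. Ptprc was also low in these 15 cells, at 69.3 against 440 CPM. Ms4a1 and Ptprc are not set here against the non-cycling cells of C22. A trait of the cluster can therefore not be told from one of its proliferating cells.

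The proliferating B cell-like cells had low MHC class II transcripts, with 7 of 7 measured genes 2-fold or more lower (median -2.24). Cd74, the invariant chain, ran from 0 to 111 UMIs per 10000 with a median of 1.90, against a median of 85.3 and a lower quartile of 53.7 in non-cycling cells. The size and direction of the difference varied with the cluster and the gene. In C22, Cd74 was at 110 CPM in proliferating and 1017 CPM in non-cycling cells, and H2-Aa at 110 and 67.4 CPM, while in the 7 proliferating cells of other clusters Cd74 was at 6343 against 9049 CPM. Compared within clusters, the median of the list was -0.66. Within C22, most genes of V(D)J recombination and the surrogate light chain that were examined were lower in the proliferating cells. Rag1, a subunit of the recombinase, had 2 UMIs in the 17 proliferating cells (15.7 CPM) and 53 in the 99 non-cycling cells (255 CPM), Igll1 had 8 and 110 UMIs, and Vpreb1 27 and 133, the non-cycling UMIs of Igll1 coming from 8 cells and those of Vpreb1 from 12. Rag2, the partner of Rag1, was at 39.2 and 43.4 CPM. The precursor list had a median of 1.43 against all B cell-like cells and -0.65 within clusters.

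The CDK inhibitor and quiescence list was mixed in B cell-like cells, with 6 of 17 measured genes 2-fold or more lower and 4 higher (median -0.55). Of the lower ones, Btg1 was at 841 against 3313 CPM and Txnip at 113 against 461 CPM, and in C22 alone they were at 886 against 3618 and 86.2 against 641 CPM. Klf2, a factor of resting lymphocytes, was at 351 against 1305 CPM (-1.89). The glucocorticoid-induced gene Tsc22d3 had 12 UMIs in 11 of the 22 cells, at 75.3 against 777 CPM. Of 12 measured immediate early genes, 9 were 2-fold lower (median -2.28), with Junb at 125 against 725 CPM; within clusters the median was -1.35. Genes of oxidative phosphorylation were 2-fold higher in 11 of 27 (median 0.84), but in 3 of 27 within clusters (0.54), 4 of 27 in C22 alone (0.51) and 4 of 27 without C22 (0.45). Among them, the cytochrome oxidase subunit Cox5a was at 508 against 180 CPM. Ccna2 had 62 UMIs in the proliferating cells against 1, and Ccnb1, a cyclin B, had 52 against 4.

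T cell-like cells had 23 proliferating and 1009 non-cycling cells, with 23.0% of 5955 measured genes 2-fold higher and 7.98% lower. They were of mixed kinds. Of the 23, 7 had a UMI of Cd8a or Cd8b1, 10 of Ctla4 and 5 of Foxp3, the latter 2 being genes of regulatory T cells. Cluster C16, led by Cd3g, Cd28 and Cd3d, held 15 proliferating among 227 cells (6.61%, 3.75 to 10.7), and C5, led by Cd3d and Cd8b1, 1 among 578 (0.173%). The T cluster C14 had 6 among 271 (2.21%, 0.817 to 4.76), and the T cluster C15 had no proliferating cell among 258. Ctla4 and Ikzf2 were at 331 and 654 CPM in the non-cycling cells of C16 too, and at 5.85 and 16.98 CPM in those of C5.

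Genes of naive T cells were lower in the proliferating cells, with 5 of 8 2-fold or more lower and 0 higher (median -1.28), and the median was -0.57 within clusters. Il7r, which keeps resting T cells alive, was found in 7 of 23 cells against 68.8% of non-cycling cells, at 116 against 574 CPM (-2.31), and at -1.75 within clusters. Dapl1 had no UMI, where 543 UMIs were found in non-cycling cells. The survival gene Bcl2 was in 5 of 23 against 60.3% of non-cycling cells, at 42.2 against 560 CPM (-3.73, and -3.25 within clusters). Txnip was at 68.6 against 356 CPM (-2.37). Of 10 measured genes of activated and effector T cells, 5 were 2-fold or more higher and 2 lower (median 0.68), and within clusters 2 of 12 were higher and 2 lower (-0.36). With 5 or more rule genes the median was -0.20. The cytotoxic protease Gzmb had 33 UMIs in 8 cells, at 174 against 21.1 CPM (3.04). Glycolysis genes were 2-fold higher in 6 of 12 (median 0.95, against 0.39 over all measured genes), and Gapdh had a median of 13.1 UMIs per 10000 against 3.10. Other values rest on few barcodes. MHC class II genes were 2-fold higher in 6 of 6 (median 2.88), but 269 of 274 H2-Aa UMIs were in 2 cells of the dendritic cluster C20, and without C20 the median was -0.68. All 263 UMIs of Apoe in the 23 cells were in 1 cell.

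**Figure D5:**
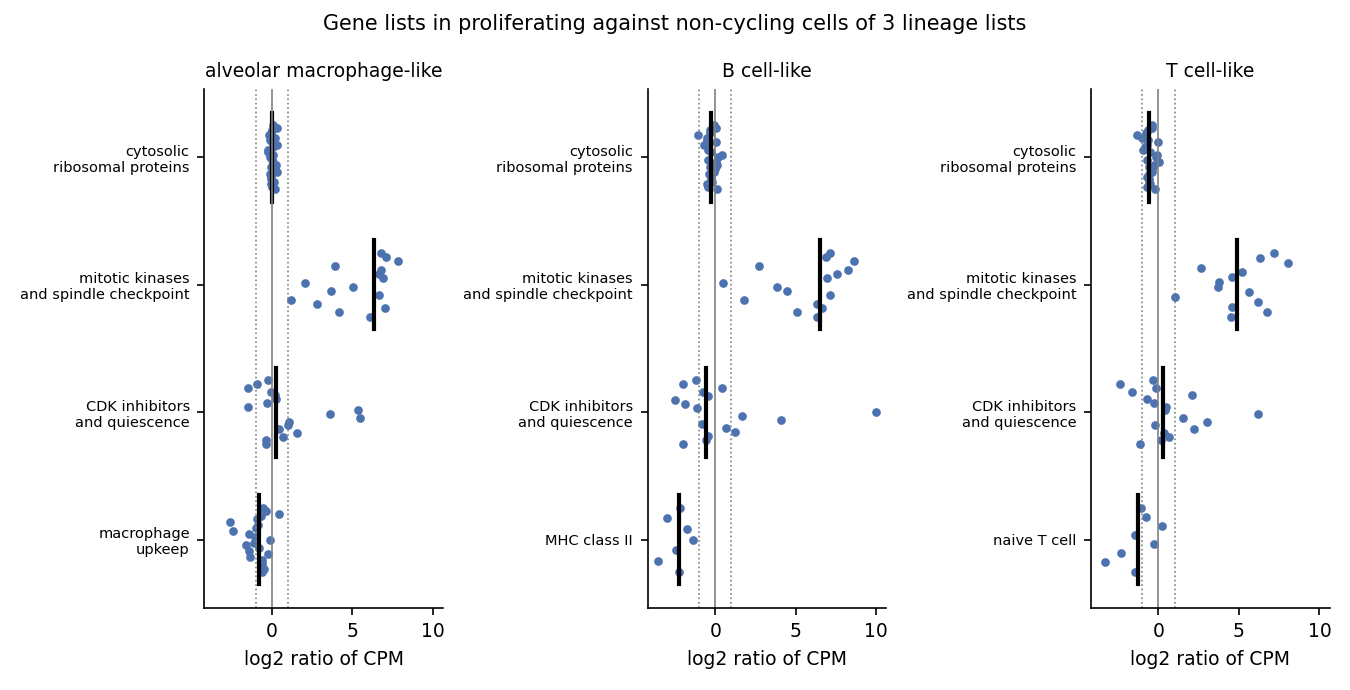
Log2 ratio of CPM in proliferating over non-cycling cells (horizontal axis) for each measured gene (points) of 4 lists in alveolar macrophage-like, B cell-like and T cell-like cells; black bars are list medians and dotted lines mark 2-fold. Mitotic kinase genes lie far to the right in all 3 panels (medians 6.36, 6.48 and 4.88), ribosomal protein genes near 0 (-0.01, -0.26 and -0.59), and macrophage upkeep, MHC class II and naive T cell genes to the left.

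Some genes outside the replication and mitosis lists could be followed through the 3 lineages. Ran was at 619 against 191 CPM in alveolar macrophage-like, 765 against 192 in B cell-like and 744 against 212 in T cell-like cells. Cdkn2c was at 91.5 against 2.1, 332 against 19.3 and 142 against 17.3 CPM. Txnip was lower, at 324 against 608, 113 against 461 and 68.6 against 356 CPM. The D-type cyclin Ccnd2 was lower in alveolar macrophage-like cells (253 against 427 CPM) and T cell-like cells (195 against 498 CPM), and in B cell-like cells it was at 119 against 129 CPM (log2 ratio -0.11, -0.85 to 0.55).

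The smaller groups were distinct in their genes. The 7 erythroid-like cells had the highest share of any list, 7 of 14 (50%, 23.0 to 77.0), and 5 of 14 (35.7%) at 1500 UMIs. Hba-a1 was at 89930 CPM and Hbb-bs at 97449 CPM in them, the heme synthesis enzyme Alas2 had a UMI in 6 of 7, and the erythroid factor Klf1 in 5, which are genes of nucleated precursors. Globin varied widely, from 4 to 3169 Hba-a1 UMIs per cell (median 245). The 4 non-cycling erythroid-like cells had 4 Hba-a1 UMIs together and none of Alas2 or Klf1, so this list has no close reference.

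Of the myeloid clusters, C20 held 9 proliferating among 156 cells (5.77%, 2.67 to 10.7). By the lists, 1 of these was alveolar macrophage-like, 1 NK cell-like and 2 T cell-like. Xcr1, a receptor of cross-presenting dendritic cells, had a UMI in 8 of the 9 against 47 of 119 non-cycling cells of C20, and Flt3 in 7. These counts were not adjusted for depth, which ran from 5067 to 19677 UMIs in the 9 cells. Ccr7, which is expressed by migrating dendritic cells, was at 26.6 against 282 CPM. In the monocyte cluster C10, all 6 proliferating cells had Ly6c2 and F13a1 (1065 and 1012 CPM), and 1 of them was erythroid-like by the lists. In C25, led by C1qa, 2 of 115 cells were proliferating. In the NK cell cluster C13, 7 of 294 were proliferating (2.38%), with the granzyme gene Gzma at 7046 against 9166 CPM and Ncr1, an NK cell receptor, at 316 against 673 CPM. NK cell-like proliferating cells were the deepest of the groups with over 2 cells, with a median of 11043 UMIs against 2020 in non-cycling ones.

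Of the 4 mesenchymal-like cells, 3 from suffix 4 expressed fibroblast genes, with Col1a2 at 15, 15 and 33 UMIs and no Ptprc. The other, from suffix 2 and cluster C31, had no Col1a2 UMI, 7 Chil3 UMIs and 1 Ptprc UMI. Over the 4 cells Col1a1 was at 2136 against 1113 CPM, Dcn at 2061 against 2246 CPM and Pdgfra at 375 against 593 CPM. Mgp, which encodes a matrix protein and led the mesenchymal clusters C2 and C12, was at 2323 against 16058 CPM, with 53 of its 62 UMIs in 1 cell. Acta2, smooth muscle actin, had 20 UMIs in 2 of the 4 cells. With 4 cells, none of these levels can be set against a spread between animals.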

How the data were processed

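Droplet RNA sequencing of sorted mouse lung cells was analysed from the deposited table of whole UMI counts, which holds 27998 genes in 10410 barcodes. The submitters' processing notes name Cell Ranger 1.3.0, STAR 2.5.1 and the genome build mm10. Barcodes with 500 or more genes and at most 10% of UMIs from mt- genes were kept (9994). The members, gene lists and thresholds were chosen with earlier results of these data known. The table was treated as 1 pooled sample without replicates, so no test or p-value was computed. Summed counts were scaled to CPM. Levels have exact Poisson, shares exact Clopper-Pearson and ratios exact conditional binomial intervals at 95%. A gene with no UMI in 1 group was set to a floor of 3 UMIs for its ratio. Lists describe genes at 20 CPM or more. Named genes are the rule genes and those with the largest and smallest ratios overall (at 50 CPM), in each lineage (at 100 CPM) and in each list; others were named after their values were seen. Doublets were called per suffix with Scrublet. Clusters were made by the Leiden method without the rule genes and 12 lists of cell cycle genes (scanpy 1.11.5, leidenalg 0.10.2, seed 0). Of 629 list symbols, 621 were in the table. The ratio script was checked on simulated counts. Between suffixes, 49 barcode sequences were shared, 1 by a proliferating cell.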

Additional observations from a re-analysis of the deposited data

How the results depend on the processing

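No paired analysis was possible because the table pools all samples, its barcodes are tied to no sample and no test was made. Of 374 recomputed values of 34 results, 333 stayed within the exact interval of the reported share or within 1.5-fold of the reported median, and for 18 results all did. This tolerance is wide for small counts: the mesenchymal share of the proliferating cells went from 3.05% to 0.855% without suffix 4. The settings by cluster, without C20, with or without C22, without mixed macrophages and without erythroid cells were chosen after seeing the data. The cause of the changes below was not tested. The share of proliferating cells was 1.58% with 3 or more rule genes, 1.03% with 5 or more, 1.95% among cells with 1000 genes and at most 5% mt UMIs, 1.68% without suffix 4 and 0.726% at 1500 UMIs, where alveolar macrophage-like cells were at 1.71% and T cell-like cells at 0.685%. B cell-like cells were 9.28% of the proliferating cells without suffix 3, and immune lineages 96.9% by clusters. The latter value counts as immune 6 erythroid-like cells of C27, a cluster named after plasma cells but led by Jchain, Hba-a1 and Hba-a2. It also counts the cells that reached no list. Over all lineages, the immediate early median was -1.39 without standardisation, the mitotic kinase median 5.70 against deep non-cycling cells and 4.64 at 50 CPM, and the centromere median 5.91 against deep cells. In alveolar macrophage-like cells the mitotic kinase median was 5.74 without suffix 4 and 5.37 by cluster, and the fibroblast matrix median, 0.84 as reported, was -0.89 at 50 CPM, -1.12 by cluster and -1.11 without mixed macrophages. In B cell-like cells the precursor median was 2.42 against deep cells, -0.65 by cluster, -0.75 in C22 alone and 0.25 without C22. The MHC class II median was -3.24 with 5 or more rule genes, -0.66 by cluster, 0.67 in C22 alone and -0.51 without C22. The immediate early median was -1.11 without suffix 2, -1.33 without suffix 3, -1.56 without suffix 6, -1.35 by cluster, -1.40 in C22 alone and -1.11 without C22. In T cell-like cells the MHC class II median was 1.34 against deep cells, -1.46 without suffix 5, 0.37 by cluster and -0.68 without C20. The activated T cell median, 0.68 as reported, was 2.34 against deep cells, -0.20 with 5 or more rule genes, 1.66 without suffix 3 and -0.36 by cluster, and the naive median was -0.57 by cluster.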
